A study of Mus musculus with 6 samples.

Results

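Secondary and tertiary granule protein genes were examined in mouse neutrophils that lack miR-223. The set held 9 genes, measured by 11 of the 45101 probe sets of the array. Ltf, Lcn2, Ngp, Chil3, Hp, Cd177 and Pglyrp1 had 1 probe set each, and Mmp9 and Lyz2 had 2 each. The members were chosen by gene and probe set identifier and not by a rule on their values, although earlier results of these data were known. All 11 passed the filter on low signal. The pairing of identifiers with genes came with the list of members and was not checked against a probe annotation here.

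RNA was profiled on 6 one-colour Affymetrix arrays, 3 of miR-223 null and 3 of wild-type neutrophils. Both groups were grown from mouse bone marrow progenitors in SILAC medium (an isotope-labelling medium) with G-CSF, the main growth factor of granulocytes, and stem cell factor (SCF) for 6 days. A further 42 hours in the absence of SCF followed, and magnetic beads were then used to collect live cells. The labels give no strain, age, sex or allele, and nothing in them ties replicates to separate mice or cultures. The p-values therefore speak of the variation among these samples alone, and it may be technical.

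Neutrophils pack antimicrobial proteins into granules that form in sequence as the cell matures. Primary granules form first, at the promyelocyte stage, secondary (specific) granules at the myelocyte and metamyelocyte stages, and tertiary (gelatinase) granules in band and segmented cells. Which granule a protein enters follows largely from when its mRNA is made, and the transcription factor C/EBP epsilon is required for much of the secondary granule programme. miR-223 is a microRNA of the myeloid lineage, and microRNAs lower mRNAs that pair with their seed, bases 2 to 8.

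The sequences of the missing microRNA are shown because its absence defines the comparison. Mir223 lies on the X chromosome, and the 2 mature strands, from RefSeq on build GRCm38.p6, are on the plus strand at chrX:96242884-96242905 (3p) and chrX:96242842-96242864 (5p), with the seed in capitals.
mmu-miR-223-3p: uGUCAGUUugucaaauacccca
mmu-miR-223-5p: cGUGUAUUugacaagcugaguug
Neither miR-223 abundance, as a check on the labels, nor seed matches in the members' mRNAs were analysed here.

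The promoters of 3 members are shown as the regulatory sequence behind the genes described, and were chosen after the values were seen. Pglyrp1 had the largest difference between genotypes, while Ltf and Ngp are classic secondary granule genes. Each run is the 250 bases before the annotated start, 5′ to 3′ in the direction of the gene, from RefSeq on GRCm38.p6. Positions are chr7:18884440-18884689 (plus strand) for Pglyrp1, chr9:111019042-111019291 (plus strand) for Ltf and chr9:110419558-110419807 (plus strand) for Ngp. Capitals of 8 letters mark matches on either strand to TTNNGNAA, a loose form of the site bound by C/EBP factors. Capitals of 6 letters mark matches on either strand to GAGGAA, the core bound by PU.1, a myeloid transcription factor.
Pglyrp1: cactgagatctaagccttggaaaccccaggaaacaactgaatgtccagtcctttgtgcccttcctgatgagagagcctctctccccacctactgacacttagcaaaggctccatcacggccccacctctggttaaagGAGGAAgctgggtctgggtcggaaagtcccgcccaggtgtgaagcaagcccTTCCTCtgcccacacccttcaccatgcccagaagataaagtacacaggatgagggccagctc
Ltf: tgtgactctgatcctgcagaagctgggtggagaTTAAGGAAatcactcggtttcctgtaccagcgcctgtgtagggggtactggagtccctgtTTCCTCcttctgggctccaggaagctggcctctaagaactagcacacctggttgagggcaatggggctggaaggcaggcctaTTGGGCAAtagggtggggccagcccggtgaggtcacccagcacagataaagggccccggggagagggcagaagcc
Ngp: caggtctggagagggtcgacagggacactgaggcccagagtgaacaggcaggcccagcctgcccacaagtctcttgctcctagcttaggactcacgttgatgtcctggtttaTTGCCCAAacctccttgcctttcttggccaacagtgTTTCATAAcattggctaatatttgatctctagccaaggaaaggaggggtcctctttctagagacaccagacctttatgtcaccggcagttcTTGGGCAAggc

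RefSeq windows were matched for 7 of the 9 genes, not for Mmp9 and Hp. Of the 7, 6 held TTNNGNAA, with 3 matches each in Ngp and Chil3, 2 in Ltf and 1 each in Lcn2, Cd177 and Lyz2, and Pglyrp1 held none. Of 32851 mouse windows of the same length, 36.8% held this motif. GAGGAA was present in 4 of the 7 windows, 2 times in Pglyrp1 (bases -113 to -108 and -62 to -57 from the start) and once each in Ltf, Lcn2 and Cd177, against 23.3% of all windows. The 2 motifs did not overlap in these windows. A match describes the letters only.

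Granule genes were among the brightest features of every array. Values are log2 intensities as deposited, so a step of 1 is a doubling of signal, and the highest value on any array was 14.98 or 14.99. Ngp lay 0.12 to 0.20 log2 units below that maximum and Ltf 0.48 to 0.70 below it, while the dimmest member, Mmp9 probe set 1416298_AT, lay 2.55 to 3.02 below. Signal that close to the top of the scale can understate differences, which was not tested. These distances describe the room left on the scale and do not order the genes by transcript abundance, since each probe set has its own response. The blank bacterial tryptophan probe sets averaged 2.77 to 2.86, and array medians lay between 4.711 and 4.726. The replicate 1 arrays of both genotypes deviated together from their group means (r = 0.70 across 27022 tested probe sets, which are not independent). Markers of other cell types, primary granule genes and other granule genes were not analysed here, because no other probe sets were paired with gene names.

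In miR-223 null cells the signal of most secondary and tertiary granule genes was close to that in wild-type cells. The largest difference in size was in Pglyrp1, a peptidoglycan recognition protein of tertiary granules, whose mean signal in null cells was 77.2% of that in wild-type cells, although its genotypes overlapped. Hp and Chil3 were brighter in every null array than in any wild-type array, with mean null signals of 109% and 107.1% of wild type. For the remaining 6 genes the mean null signal was between 94.8% and 105.3% of wild type at every probe set. No member passed an adjusted p of 0.05 when the arrays were treated as unpaired (limma, Benjamini-Hochberg over 27022 probe sets). In that fit 0.189% of all tested probe sets passed. Unadjusted, 3 of these 11 had a limma p under 0.05, and so did 2881 of the 27022 tested probe sets. With arrays paired by replicate number (the replicate block), 1 of 11 passed, Pglyrp1. In that fit 10.0% of all tested probe sets passed, and 5.05% passed and were lower in null arrays. The members' count, 1 of 11, is near the background share in that fit, and the relation moved with the setting. With the block, 5 of 11 members passed without replicate 3 (8.58% of all tested probe sets). The count was 1 of 11 without replicate 2 (2.24%) and 1 of 11 without replicate 1 (7.57%). With a pair left out, few arrays remain to estimate the variance of each probe set. Such calls, here and below, rest largely on the variance modelled over all probe sets. With the block and without the intensity trend of the variance, 0 of 11 passed (0.707%). Unadjusted, 1 member had a limma p under 0.05 in that fit, and so did 6213 of the 27022 tested probe sets. In bulk RNA, fewer cells at a given stage and less mRNA per cell cannot be told apart.

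**Figure D1:**
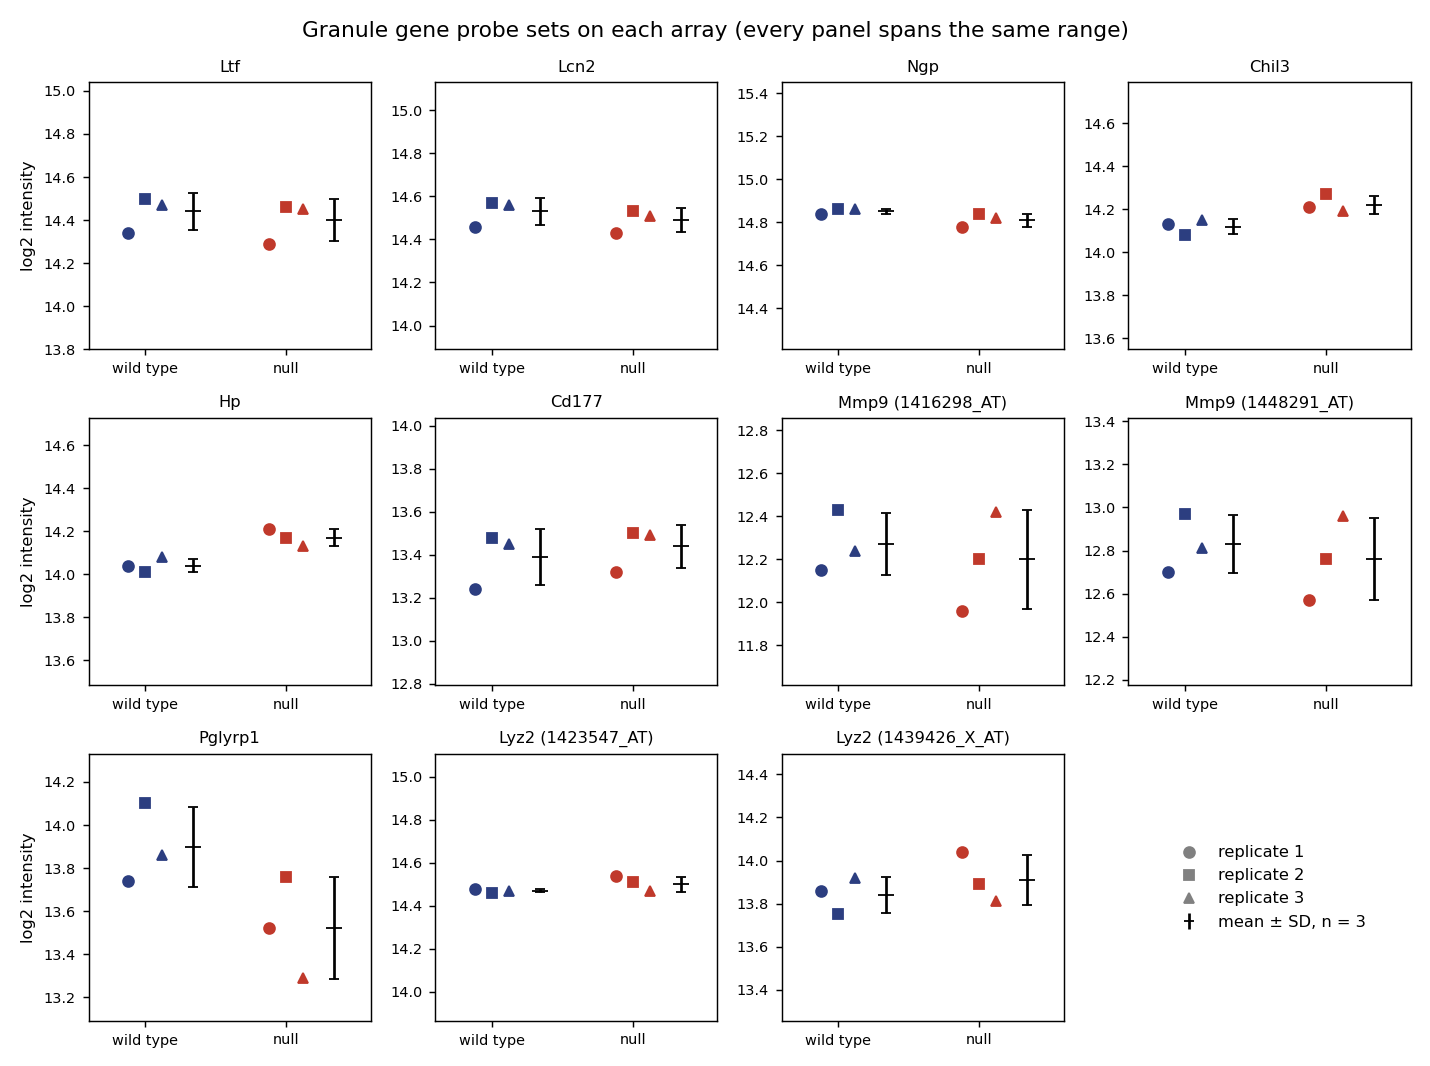
Log2 intensity (vertical axis) of each of the 11 probe sets on the 3 wild-type arrays (blue) and 3 miR-223 null arrays (red), with circles, squares and triangles for replicates 1, 2 and 3 and black bars for mean ± SD (n = 3). Every panel spans the same range of values, so distances can be compared across panels; the largest gap between genotypes is in Pglyrp1, at 13.52 in null against 13.90 in wild type.

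Among secondary granule matrix proteins, Ltf encodes lactoferrin, which binds iron and so withholds it from microbes. Its log2 intensity was 14.29, 14.46 and 14.45 in null replicates 1, 2 and 3 and 14.34, 14.50 and 14.47 in wild-type replicates 1, 2 and 3. The genotypes overlapped, and in both of them replicate 1 was the lowest. The null mean of 14.40 ± 0.096 (SD, n = 3) was within the spread of the wild-type mean of 14.44 ± 0.088 (SD, n = 3). The difference of -0.040 log2 units had a 95% confidence interval of -0.185 to 0.106 (limma adjusted p = 0.89), so that null signal between 88.0% and 107.6% of wild type is compatible with these arrays. Within pairs the null array was lower in 3 of 3, by 0.027 to 0.050 log2 units in size, and the interval with the block was -0.098 to 0.019 (limma adjusted p = 0.379).

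Lcn2 encodes lipocalin 2, which captures bacterial iron carriers. The null arrays read 14.43, 14.53 and 14.51 and the wild-type arrays 14.46, 14.57 and 14.56. As for Ltf, replicate 1 was lowest in both genotypes and the genotypes overlapped. The difference was -0.037 log2 units (95% confidence interval -0.143 to 0.069, limma adjusted p = 0.849), lower in null in 3 of 3 pairs. With the block the interval was -0.094 to 0.021 (limma adjusted p = 0.409).

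Ngp encodes neutrophilic granule protein, a cathelicidin-related protein of mouse myeloid cells. It read 14.78, 14.84 and 14.82 on null arrays and 14.84, 14.86 and 14.86 on wild-type arrays. The highest null array just overlapped the lowest wild-type array. The difference of -0.038 log2 units (95% confidence interval -0.109 to 0.032, limma adjusted p = 0.729) was lower in null in 3 of 3 pairs and did not pass with the block either (limma adjusted p = 0.38). Control probe sets aside, Ngp ranked 2 or 3 in signal on each array.

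Of the secondary granule members, Hp and Chil3 were brighter in null cells on every array. Hp encodes haptoglobin, which binds free haemoglobin and is stored in neutrophil granules as well as being made by the liver. Its log2 intensity was 14.21, 14.17 and 14.13 in null and 14.04, 14.01 and 14.08 in wild-type replicates. All 3 null arrays lay above all 3 wild-type arrays, with means of 14.17 ± 0.040 (SD, n = 3) and 14.04 ± 0.032 (SD, n = 3). The difference was 0.124 log2 units, or 109% of wild type (95% confidence interval 102.4% to 116%, limma unadjusted p = 0.0136, adjusted p = 0.315). Pairing brought the limma adjusted p to 0.0534, still above the threshold, and the pair differences were 0.17, 0.15 and 0.049 log2 units for replicates 1, 2 and 3. Without replicate 3, the pair with the smallest gap, the blocked difference was 0.162 and passed (limma adjusted p = 0.0221). Without replicate 1 or 2 it was 0.101 and 0.109 and did not pass (limma adjusted p = 0.171 and 0.267).

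Chil3 encodes chitinase-like protein 3 (Ym1), a lectin made by mouse neutrophils and by alternatively activated macrophages. Its null arrays read 14.21, 14.27 and 14.19 and its wild-type arrays 14.13, 14.08 and 14.15, again with no overlap. The difference was 0.099 log2 units, or 107.1% of wild type (95% confidence interval 100.5% to 114.1%, limma unadjusted p = 0.0375, adjusted p = 0.433). It was higher in null in 3 of 3 pairs, by 0.078, 0.185 and 0.034 log2 units, and did not pass with the block (limma adjusted p = 0.116). The paralogue Chil4 is nearly identical in sequence, and what it adds to this signal was not tested. Both Hp and Chil3 reached 0.1 in an exact two-sided permutation test, the smallest p that 3 against 3 arrays can give. Members whose genotypes did not overlap were 2 of 11. No overlap was seen in 16.8% of all tested probe sets and in 22.3% of the 623 at least as bright as the dimmest member. The members' count is thus near the background here too.

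The granule membrane was represented by Cd177, a glycolipid-anchored surface protein that is also stored in secondary granules. It read 13.32, 13.50 and 13.49 in null and 13.24, 13.48 and 13.45 in wild-type replicates. The genotypes overlapped, and replicate 1 was again the lowest in each. The difference was 0.046 log2 units (95% confidence interval -0.137 to 0.23, limma adjusted p = 0.90), higher in null in 3 of 3 pairs by 0.025 to 0.079, and the interval with the block was -0.023 to 0.115 (limma adjusted p = 0.386).

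Of the tertiary granule genes, Pglyrp1 had a lower mean signal on null arrays, a difference that passed only with the block and the intensity trend together. Its protein binds the peptidoglycan of bacterial cell walls. Its log2 intensity was 13.52, 13.76 and 13.29 in null replicates 1, 2 and 3 and 13.74, 14.10 and 13.86 in wild-type replicates 1, 2 and 3. Null 2, the highest null array, was just above wild-type 1, the lowest wild-type array, so the genotypes overlapped (exact two-sided permutation p = 0.2). Within each pair, however, the null array was lower, at 86.2%, 79.1% and 67.4% of its wild-type partner for replicates 1, 2 and 3.

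Null arrays had a mean Pglyrp1 level of 13.52 ± 0.237 (SD, n = 3), against 13.90 ± 0.186 (SD, n = 3) for wild-type arrays. The difference of -0.37 log2 units (SE 0.132) did not pass in the unpaired fit (95% confidence interval -0.681 to -0.066, limma unadjusted p = 0.0234, adjusted p = 0.371). With the block it passed (SE 0.06, 95% confidence interval -0.514 to -0.234, limma adjusted p = 0.0118). Under the variance model of that fit, the interval for the mean was 70.1% to 85.0% of wild type. The pairs of replicates 1 and 3, at 86.2% and 67.4%, lay outside it. The blocked call was kept without replicate 1, 2 or 3 (limma adjusted p = 0.00328, 0.0389 and 0.00698), with differences of -0.453, -0.392 and -0.277 log2 units. These p-values rest largely on the variance modelled over all probe sets, since few arrays remain with a pair left out. The call was lost when the variance was modelled without its trend on intensity (limma adjusted p = 0.105), where the difference was the same. The call therefore depended on that variance model and on the pairing. The size of the unpaired difference was smallest without null 3, at -0.256 log2 units, and largest without null 2, at -0.493.

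Mmp9, which encodes gelatinase B, the enzyme for which gelatinase granules are named, showed no common direction. Probe set 1416298_AT read 11.96, 12.20 and 12.42 on null arrays and 12.15, 12.43 and 12.24 on wild-type arrays. Probe set 1448291_AT read 12.57, 12.76 and 12.96 on null arrays and 12.70, 12.97 and 12.81 on wild-type arrays. In both, null was lower in replicates 1 and 2 and higher in replicate 3. The pair differences were -0.185, -0.23 and 0.186 log2 units at the first probe set and -0.126, -0.207 and 0.143 at the second. The gap between the 2 probe sets stayed between 0.53 and 0.61 log2 units over the 6 arrays (SD 0.027), so both reported the same ups and downs of this gene from array to array. The spread of Mmp9 between arrays of 1 genotype, up to 0.23 (SD, n = 3), was therefore far larger than the disagreement of its probe sets.

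The mean of both Mmp9 probe sets gave a difference of -0.070 log2 units with an SE of 0.117 (limma adjusted p = 0.898), which did not pass with the block (limma adjusted p = 0.589). The unpaired confidence intervals of the 2 probe sets were wide, 77.5% to 116% and 80.3% to 114.1% of wild type. Without the replicate 3 pair, both probe sets passed with the block at -0.208 and -0.166 log2 units (limma adjusted p = 0.0189 and 0.0389). Without the replicate 2 pair the differences were 0 and 0.008. The direction of Mmp9 thus turned on which arrays were included.

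**Figure D2:**
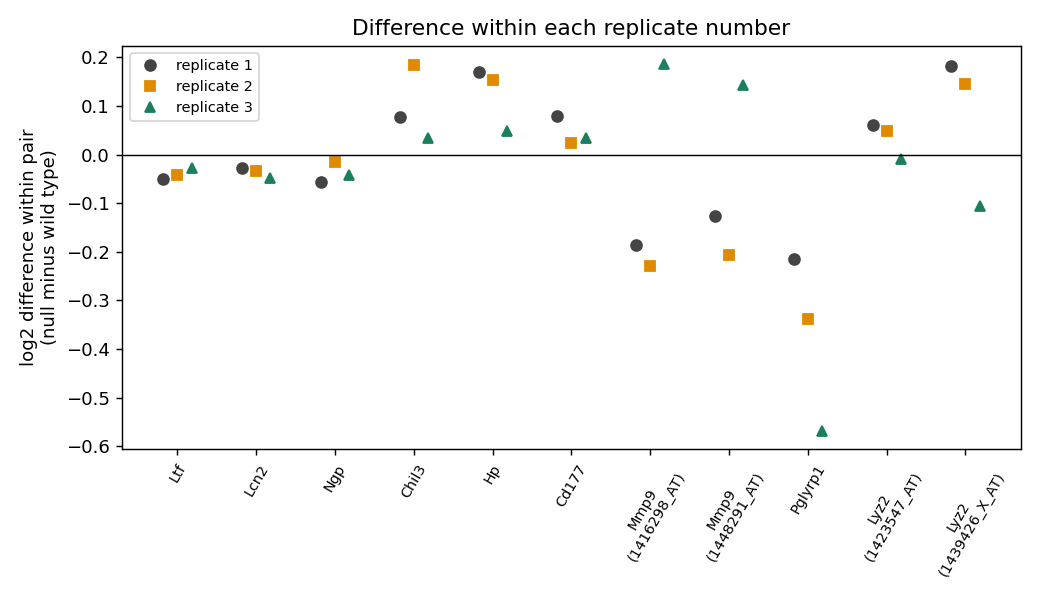
Log2 difference, null minus wild type (vertical axis), within each shared replicate number for the 11 probe sets, with circles, squares and triangles for replicates 1, 2 and 3. Pglyrp1 lies below 0 in all 3 pairs (-0.215, -0.338 and -0.568). Both Mmp9 probe sets and both Lyz2 probe sets change sign in replicate 3, though Lyz2 1423547_AT is almost level there (-0.008).

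Lyz2 encodes lysozyme M, a bacterial cell wall hydrolase present in all granule classes and also abundant in monocytes and macrophages. Probe set 1423547_AT read 14.54, 14.51 and 14.47 on null arrays and 14.48, 14.46 and 14.47 on wild-type arrays. Probe set 1439426_X_AT read 14.04, 13.89 and 13.81 on null arrays and 13.86, 13.75 and 13.92 on wild-type arrays. Null exceeded wild type in replicates 1 and 2 at both. In replicate 3 null was below wild type at 1439426_X_AT (-0.106 log2 units) and almost level with it at 1423547_AT (-0.008). The differences were 0.034 (95% confidence interval -0.043 to 0.111, limma adjusted p = 0.791) and 0.074 log2 units (95% confidence interval -0.088 to 0.236, limma adjusted p = 0.782). With the block neither passed (limma adjusted p = 0.494 and 0.448), and without the replicate 3 pair 1439426_X_AT passed at 0.164 log2 units (limma adjusted p = 0.0236). Without the replicate 1 or 2 pair the 1439426_X_AT difference was 0.02 and 0.038 and did not pass (limma adjusted p = 0.88 and 0.83). The identifier of that probe set marks probes that may cross-hybridise. Lyz1 is a close paralogue, and its share in either signal was not tested. The gap between both probe sets varied more than for Mmp9, with an SD of 0.076 over 6 arrays.

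**Figure D3:**
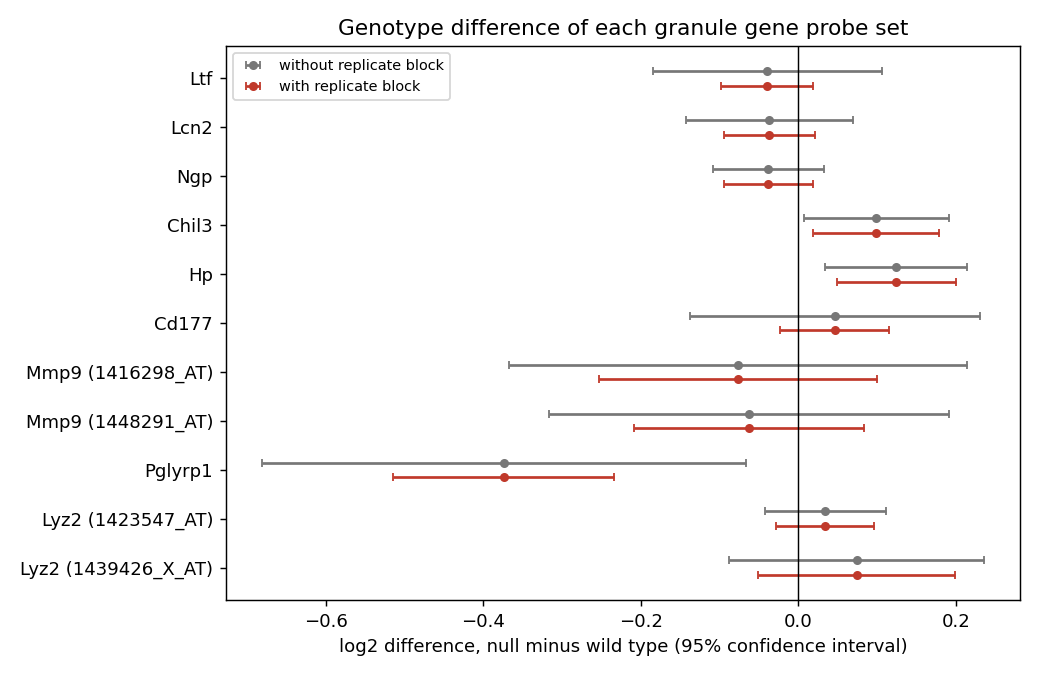
Log2 difference, null minus wild type (horizontal axis), with 95% confidence intervals from limma without (grey) and with (red) the replicate block for the 11 probe sets. With the block the intervals of Pglyrp1 (-0.514 to -0.234), Hp (0.049 to 0.20) and Chil3 (0.019 to 0.179) do not include 0 before adjustment for multiple testing; of these, Pglyrp1 passed after adjustment.

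In Ltf, Lcn2, Cd177 and both Mmp9 probe sets the replicate number accounted for most of the variation. Dividing the sum of squares over the 6 arrays into genotype, replicate number and remainder, the replicate number held 93.1% in Ltf, 86.5% in Lcn2 and 92.9% in Cd177, and genotype held 6.5%, 12.8% and 5.7%. At Mmp9 1416298_AT and 1448291_AT the replicate number held 60.7% and 66.3%, and genotype held 5.7% and 5.1%. In each of these genes, and in Ngp, replicate 1 was the lowest array of both genotypes. In Hp and Chil3 the order was the other way, with 81.8% and 70.9% for genotype and 3.0% and 0.2% for replicate number. Pglyrp1 was intermediate, with 53.6% for genotype and 38.1% for replicate number. The median over the 11 probe sets was 16.6% for genotype and 39.6% for replicate number, against 16.4% and 53.3% over the 27022 tested probe sets. Over the 623 tested probe sets at least as bright as the dimmest member, the medians were 19.6% and 61.5%. These shares are descriptive, as 3 replicates give each of them a wide error.

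**Figure D4:**
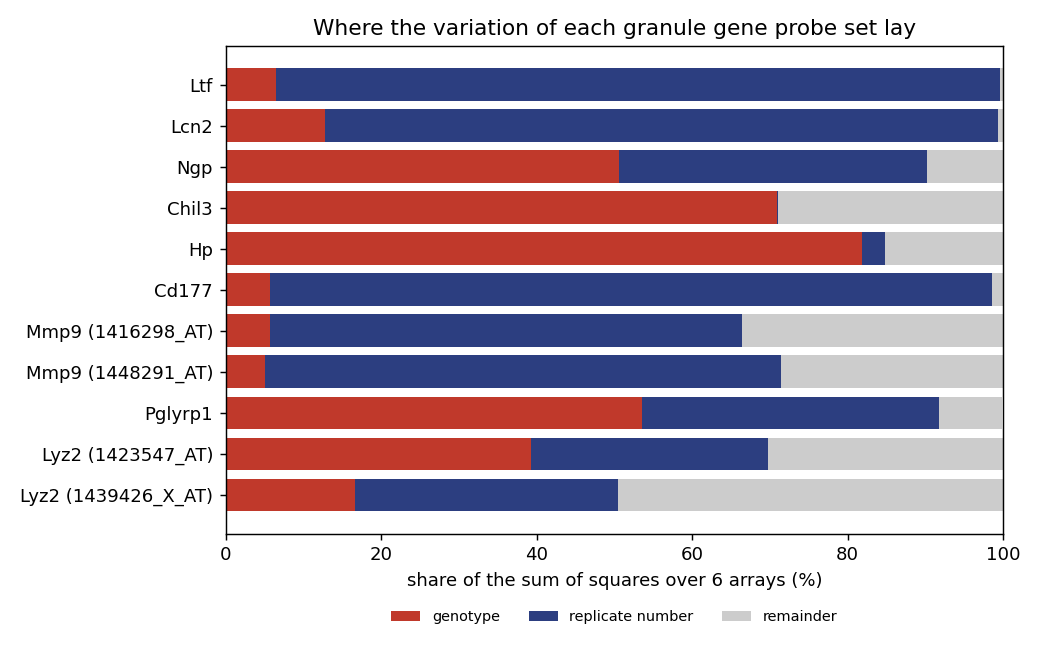
Share of the sum of squares over 6 arrays (horizontal axis, %) that lay between genotypes (red), between replicate numbers (blue) and in the remainder (grey) for the 11 probe sets. Replicate number takes over 86% in Ltf, Lcn2 and Cd177, and genotype takes over 70% in Hp and Chil3.

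Array controls moved with the replicate 1 arrays. For beta-actin, the 3′ probe set exceeded the 5′ one, a measure of RNA integrity, by a log2 difference of 0.277 on null 1 and 0.255 on wild-type 1, and of 0.152 to 0.206 on the other 4 arrays. For Gapdh the same difference ran the other way, at -0.113 and -0.090 on the replicate 1 arrays and -0.064 to 0.067 on the others. Spiked poly-A controls, averaged over their 3′ probe sets, read 9.14 and 9.03 on the replicate 1 arrays and 8.42 to 8.84 on the others. Their part in the lower Ltf, Lcn2, Cd177, Mmp9 and Ngp signal of replicate 1 was not tested. With both replicate 1 arrays left out, which was tried after seeing the data, 0 of the 11 members passed without the block, beside 3.97% of all tested probe sets. Unadjusted, 3 members had a limma p under 0.05 in that fit, and so did 5497 of the 27022 tested probe sets. The Pglyrp1 difference there was -0.453 log2 units (limma adjusted p = 0.119).

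As a group the members' signal moved little and without a shared direction. Several members lay near the top of the scale, where differences can be understated, which was not tested. In the unpaired fit 5 of the 11 differences were above 0 and 6 below, with a median of -0.037 log2 units beside -0.011 over all tested probe sets. The median size of the difference was 0.063 log2 units, against 0.112 over all tested probe sets and 0.057 over the 623 tested probe sets at least as bright as the dimmest member. Among those 623, 14.3% passed with the block. In 7 of the 11 probe sets all 3 pairs agreed in sign (Ltf, Lcn2, Ngp and Pglyrp1 lower, and Hp, Chil3 and Cd177 higher), a share of 63.6% beside 46.6% of all tested probe sets and 59.2% of the bright ones.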

How the data were processed

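Messenger RNA was measured on 6 arrays. The deposited table holds log2 intensities for 45101 probe sets, and the submitters' processing notes name GCOS. Background correction, normalization and probe summary are not given in the sources used here. The log base was read from the range of values. Sorted values of the 6 arrays differed by at most 0.116 log2 units at any rank, so the arrays were on 1 scale before deposit, and a change in total mRNA cannot be seen.

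After 64 control probe sets were set aside, the 27022 of 45037 with a mean at or above the 40th percentile (4.08) were tested, null minus wild type, with limma 3.58.1 in R 4.3.3 (lmFit, eBayes with intensity trend, two-sided, Benjamini-Hochberg adjusted p under 0.05). The code was tested on simulated data. The fit without covariates was the main one. Replicate numbers from the titles were taken to pair the arrays, because deviations from the group means correlated within every number (r = 0.70, 0.30 and 0.48). These correlations come from the same arrays that were then tested with the pairing, over probe sets that are not independent. The labels do not say what a number stands for. Confidence intervals are limma's.

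Members and lists were chosen with earlier results of these data known. The naming rule was all 11 member probe sets, called genes of the context lists and the 5 genes most like the members. The last 2 parts and the lists could not be run, as no table given here pairs probe sets with genes. Alternatives were other filters and scalings, no intensity trend, the block and leaving out arrays. Sequences are from RefSeq, GRCm38.p6.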

Additional observations from a re-analysis of the deposited data

How the results depend on the processing

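No member passed in any unpaired fit (no filter, filter at the 60th percentile, quantile normalization, median centring, no intensity trend, each array left out). The number of members that passed was 1 with the replicate block, 0 with the block and no intensity trend, and 1 to 5 with the block and 1 replicate pair left out, where 5 was reached without replicate 3. Calls with a pair left out rest largely on the variance modelled over all probe sets. The count over all tested probe sets was 51, or 2703 with the block, 191 with the block and no intensity trend, 2045, 606 and 2319 with the block and without replicate 1, 2 or 3, 0 to 58 with 1 array left out and no block, and 1072 without both replicate 1 arrays (chosen after seeing the data). It was 0 without null 2 or wild-type 2 (2064 and 1753 with unadjusted limma p-values below 0.05), for which no cause was tested. The block changed the call of Pglyrp1 and of no other member.

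Directions turned only when arrays or pairs were left out, and only in Ltf, Cd177 and Mmp9, none of them called in the unpaired fit. Leaving out 1 array moved Ltf between -0.090 and 0.016, Cd177 between -0.028 and 0.104, Mmp9 1416298_AT between -0.191 and 0.039 and Mmp9 1448291_AT between -0.160 and 0.033 log2 units. With the block and 1 pair left out, the Mmp9 probe sets ran from -0.208 to 0 and from -0.166 to 0.008. Quantile normalization took the Ngp difference to 0 after rounding and changed no direction among the other members. Alternatives for other gene lists were not run, since their probe sets were not named.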
